A study of Homo sapiens with 32 samples.

Results

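The 56 genes described here encode developmental transcription factors outside the HOX clusters. They were chosen by name from 12 protein families and a few single genes, and they are 56 of 19974 protein-coding genes on chromosomes 1 to 22 and X. For each gene the percent of its span, with 2.5 kb on each side, that lay inside called H3K27me3 islands was computed in each of 16 libraries, and this percent is called coverage. The libraries came from MDA-MB-231, a mesenchymal-like cell line established from triple-negative breast cancer. Cells had received an EZH2 inhibitor together with a p38 MAP kinase inhibitor (combo, labelled EPZ + P38i), the EZH2 inhibitor alone (EPZ, written EP7 in the titles), the p38 inhibitor alone (P38i) or no inhibitor (control). Each group held 4 H3K27me3 ChIPmentation libraries, an assay that tags immunoprecipitated chromatin with a transposase, and treatment lasted 24 h. The files of a further 16 IgG libraries were not used here. Whether replicates were separate cultures is not stated, so p-values measure only the spread between these libraries, which may be technical.

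H3K27me3 is laid down by Polycomb repressive complex 2, whose catalytic subunit is EZH2. In embryonic stem cells, genes for developmental transcription factors are among its best known targets: the mark covers their CpG-rich starts and often whole genes, and it is lost in the lineage where the factor acts. p38 is a stress-activated kinase. An island is a stretch in which the caller found more reads than background, so coverage says how much of a gene was called, not how much of the mark it carried. In a bulk sample, fewer cells with the mark and less mark per cell cannot be told apart.

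The 16 lists covered 474 to 674 Mb with 53290 to 85194 islands each, and read depth is unknown. Covered length was 546 ± 50.7 Mb in the 8 combo and EPZ libraries and 605 ± 67.1 Mb in the 8 P38i and control libraries (SD). The 2 libraries with the narrowest islands were EPZ replicate 1 and control replicate 4, with median widths of 3.4 and 4 kb, where the others had 4.4 to 7.4 kb. Of 10 mesenchymal markers of the line, 9 had no island in any library and MSN had a mean coverage of 3.59%. Of 12 luminal markers, 7 had none, while PGR had a mean coverage of 95.4%, ESRP1 64.6%, FOXA1 56.6%, GRHL2 47.3% and ESR1 10.2%.

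The starts of 39 of the 56 genes had an entry in the RefSeq promoter table (GRCh38.p14), and 1 start per gene was used. The 250 bases before the start are printed for the members the results turn on, 5′ to 3′ on the gene's strand, with every CG dinucleotide in capitals. MSGN1 is the gene with the largest difference, TBX20 and NKX6-1 also differed with the EZH2 inhibitor, PAX2 had the highest coverage and PAX3 a covered body with an island-free start. ISL1 had no island at all. MSGN1 lies at chr2:17816210-17816459 (plus strand), TBX20 at chr7:35254101-35254350 (minus), NKX6-1 at chr4:84499293-84499542 (minus), PAX2 at chr10:100735146-100735395 (plus), PAX3 at chr2:222298999-222299248 (minus) and ISL1 at chr5:51383198-51383447 (plus).
MSGN1: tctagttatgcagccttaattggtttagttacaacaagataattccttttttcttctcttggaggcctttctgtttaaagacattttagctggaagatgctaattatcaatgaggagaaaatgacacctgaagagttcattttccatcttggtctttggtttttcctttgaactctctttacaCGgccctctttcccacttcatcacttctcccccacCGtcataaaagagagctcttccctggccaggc
TBX20: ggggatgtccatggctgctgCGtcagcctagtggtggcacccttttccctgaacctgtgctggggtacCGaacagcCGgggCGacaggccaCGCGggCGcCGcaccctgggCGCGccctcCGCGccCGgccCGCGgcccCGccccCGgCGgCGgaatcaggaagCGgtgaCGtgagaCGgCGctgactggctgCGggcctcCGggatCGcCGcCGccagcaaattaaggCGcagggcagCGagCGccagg
NKX6-1: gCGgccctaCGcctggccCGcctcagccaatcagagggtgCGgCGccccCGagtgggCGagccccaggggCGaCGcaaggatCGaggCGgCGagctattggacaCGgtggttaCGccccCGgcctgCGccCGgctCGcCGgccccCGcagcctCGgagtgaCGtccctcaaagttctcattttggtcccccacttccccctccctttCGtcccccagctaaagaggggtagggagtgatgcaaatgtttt
PAX2: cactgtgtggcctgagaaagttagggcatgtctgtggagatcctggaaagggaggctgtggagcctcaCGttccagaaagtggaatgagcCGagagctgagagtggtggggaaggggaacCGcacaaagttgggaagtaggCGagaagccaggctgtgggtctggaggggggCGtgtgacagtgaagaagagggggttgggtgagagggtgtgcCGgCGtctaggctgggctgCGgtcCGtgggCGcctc
PAX3: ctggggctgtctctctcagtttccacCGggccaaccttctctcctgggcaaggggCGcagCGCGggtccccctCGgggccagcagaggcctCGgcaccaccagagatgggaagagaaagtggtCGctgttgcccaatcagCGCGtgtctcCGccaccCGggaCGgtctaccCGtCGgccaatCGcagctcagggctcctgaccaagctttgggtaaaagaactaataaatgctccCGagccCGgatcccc
ISL1: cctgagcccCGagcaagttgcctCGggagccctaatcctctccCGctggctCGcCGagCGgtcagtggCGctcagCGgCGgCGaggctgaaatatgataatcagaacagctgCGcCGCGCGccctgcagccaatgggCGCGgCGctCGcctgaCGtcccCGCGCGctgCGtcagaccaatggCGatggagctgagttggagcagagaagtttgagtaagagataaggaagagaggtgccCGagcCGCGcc
MSGN1 stood apart from the rest with 2 CG dinucleotides in these 250 bases, against 10 in PAX2, 17 in PAX3, 23 in NKX6-1, 27 in ISL1 and 31 in TBX20. The observed over expected CpG ratio of the 39 members had a median of 0.827, against 0.737 over all 15812 starts in the table. It was under 0.6 in 4 members (MSGN1 0.200, PAX8 0.518, PAX2 0.531 and SOX21 0.567), and 36.6% of all starts lay under 0.6.

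Islands reached a larger share of the factor genes than of protein-coding genes at large. An island reached 19 of 56 members (33.9%) in all 16 libraries, against 16.9% of all protein-coding genes. No library had an island in another 19 members (33.9%), against 68.0% of all genes, and the other 18 members had islands in some libraries. Mean coverage over the 16 libraries was above 0 and under 5% in 6 members, from 5 to 50% in 24, from 50 to 95% in 7 and above 95% in none. Of all genes 1.76% lay above 95%. Among genes with a mean of 5 to 95%, the median was lower in members (36.2%) than over all genes (42.0%). On average 15.5% of the members were at least 50% covered in a library, against 10.8% of all genes. HOX genes, also textbook Polycomb targets, stood at 2.24%, with 27 of 39 free of islands, and 14 homeobox genes of the head at 8.48%. Other genes of the members' own families, 93 in number, stood at 13.0%, with 50 free of islands. Of 29 Polycomb subunit genes 27 had no island, and none of 30 housekeeping genes had one.

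**Figure D1:**
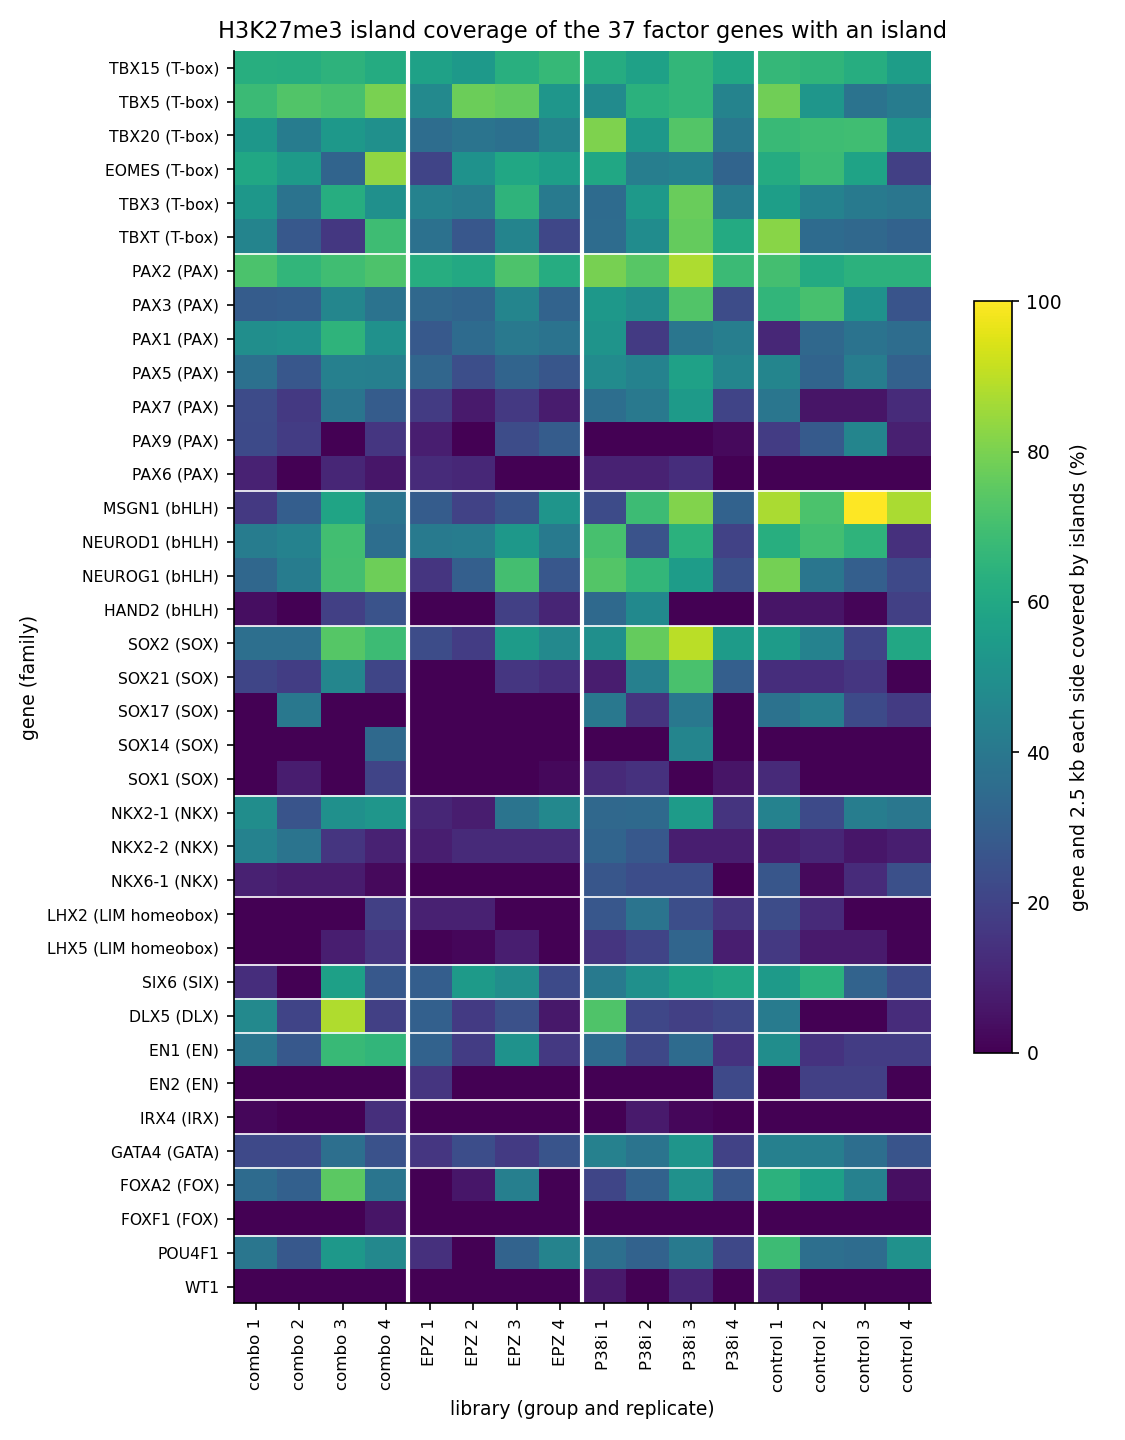
Coverage of the 37 members with an island in at least 1 library (vertical axis, gene with its family) in each of the 16 libraries (horizontal axis, group and replicate); colour gives the percent of the gene and 2.5 kb on each side inside islands, from 0 to 100%. PAX2 and TBX15 are at least 50% covered in all 16 libraries, while SOX14 has an island in 2 and FOXF1 in 1.

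The T-box genes, which pattern mesoderm, heart and limbs, were the most covered family. Of 7 members, 6 had a mean coverage of at least 5%, 4 of at least 50%, and the median member stood at 50.2%. TBX15, a factor of limb skeleton and skin, was covered at 62.8% ± 1.26 in combo, 60.3% ± 5.90 in EPZ, 61.3% ± 3.70 in P38i and 62.5% ± 4.86 in control (SD, n = 4 each). These means differed by less than the SD within EPZ, and TBX15 had the narrowest range of the 7 members above 50%, between 53.9 and 67.0% over all libraries. TBX5, the heart and forelimb factor, had a mean of 61.2% and TBX20, a cardiac factor, 53.8%. EOMES, which specifies early mesendoderm, had 50.2%, TBX3, a factor of limb and mammary gland, 49.1%, and TBXT (brachyury), the notochord factor, 43.3%. The exception was TBX1, a pharyngeal factor, whose nearest island lay a median of 79.0 kb away. Here and below, the distance to the nearest island is counted from the edge of the window, 2.5 kb outside the gene.

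Of 8 paired box genes 7 had a mean coverage of 5% or more, and the median member stood at 30.7%. With lists of equal covered length, the mean over libraries of the median member was 12.8% in place of 29.8%. PAX2, a factor of kidney and of the boundary between midbrain and hindbrain, had the highest mean of all 56 members (69.1%, from 60.5 to 87.8%). PAX3, a neural crest and muscle precursor factor, had 43.7%. PAX1, of the sclerotome, had 39.2%, PAX5, the B cell commitment factor, 38.3%, PAX7, of muscle stem cells, 23.2%, and PAX9, of pharyngeal pouch and tooth, 13.7%. PAX6, the eye factor, stood at 5.08% and was the member just above the 5% limit for testing; SOX14, a neural factor at 4.99%, was the member just below it. PAX6 had an island in 3 of 4 combo, 2 of 4 EPZ, 3 of 4 P38i and 0 of 4 control libraries. PAX8, the thyroid and kidney factor, had no island.

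The 5 basic helix-loop-helix genes had a median member at 47.2%, below the T-box genes and above the paired box genes, and 3 of them stood close together. Without the 2.5 kb flanks the mean over libraries of their median was 4.14% in place of 33.5%. MSGN1, which drives differentiation of presomitic mesoderm, had a mean of 51.2%, NEUROD1, a neuronal and endocrine factor, 47.5% and NEUROG1, of sensory neurons, 47.2%. HAND2, of heart and sympathetic neurons, had 11.9% and OLIG2, of oligodendrocytes and motor neurons, none, with its nearest island a median of 4.84 kb away. MSGN1 was the most variable of them, between 16.4 and 100%. In the SOX family the members ranged from SOX2 (50.5%), the pluripotency and neural progenitor factor, over SOX21 (20.6%) and SOX17 (16.0%), the endoderm factor, to SOX10, the neural crest factor, without an island. Of the NKX genes, NKX2-1 of thyroid and lung had 35.5%, NKX2-2 of ventral neural tube 16.4%, NKX6-1 of beta cells and motor neurons 10.4%, and the cardiac gene NKX2-5 none, with its nearest island 410 kb away.

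In most of the smaller families, 1 or 2 members reached 5% while their relatives had little coverage or none. FOXA2, an endoderm pioneer factor, had a mean of 33.0%, but FOXD3, FOXE1 and FOXL2 had no island and FOXF1 had 0.363%. GATA4, a cardiac and endoderm factor, had 30.6%, while GATA5 and GATA6 had none. DLX5 had 27.6% and the neighbouring pair DLX1 and DLX2, 9.76 kb apart, none. SIX6 of the eye had 39.6% and SIX3 of the forebrain none, while EN1 had 32.7% and EN2 4.70%. No IRX gene reached 5%, with 1.53% for IRX4 and no island for IRX1. LHX2 and LHX5, forebrain LIM homeobox genes, had 11.1% and 8.94%, and LHX1, LHX9 and ISL1 had none. Of the single genes, POU4F1 of sensory neurons had 36.2% and WT1 of kidney and gonad 1.61%, and CDX2 of the intestine and ZIC1 of the cerebellum had none. The 19 island-free genes were not all in island-poor surroundings: the nearest island lay a median of less than 20 kb away for 7 of them, 20 to 200 kb for 8 and over 400 kb for 4 (NKX2-5, GATA6 at 549 kb, SOX10 at 824 kb and ZIC1 at 1166 kb).

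**Figure D2:**
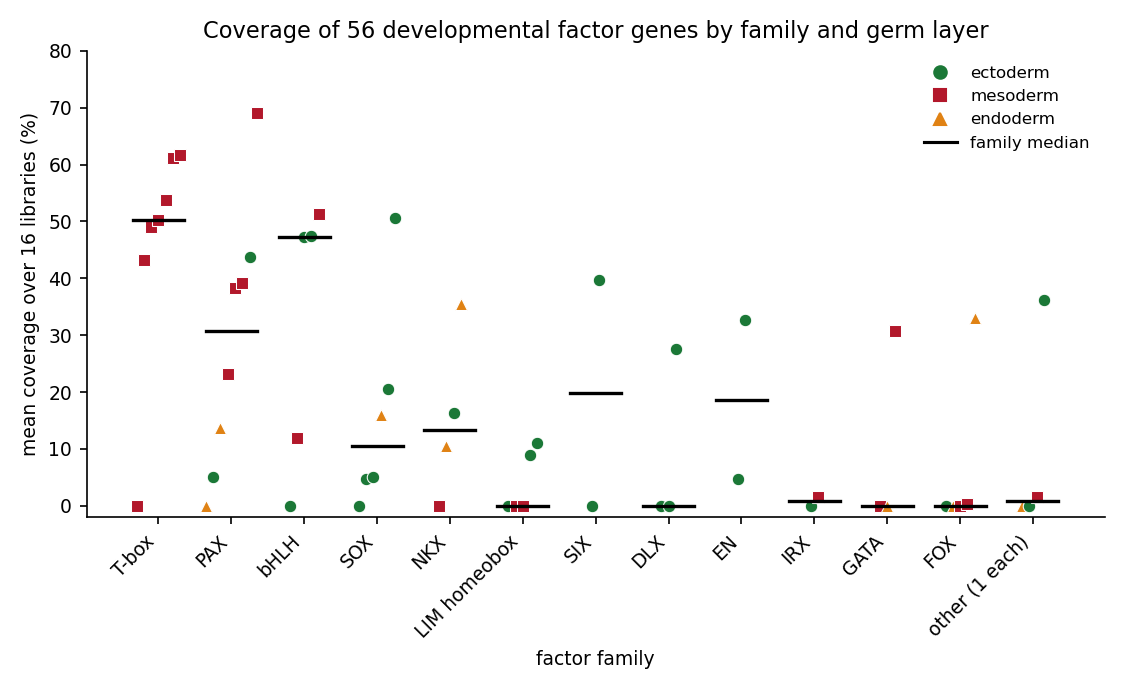
Mean coverage over the 16 libraries (vertical axis, percent) of each of the 56 members, grouped by protein family (horizontal axis); circles are ectoderm genes, squares mesoderm genes and triangles endoderm genes by primary germ layer, and the black line is the family median. The T-box median lies at 50.2%, and the medians of the DLX, FOX, GATA and LIM homeobox families lie at 0.

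By the germ layer in which each factor is best known, mesoderm genes had the highest median coverage. The layers were assigned by hand from textbook roles, and several factors act in more than 1. Of 22 mesoderm genes 13 had at least 5% mean coverage, 6 at least 50% and 6 no island, with a median member at 26.9%. Of 25 ectoderm genes 13 had at least 5%, 1 at least 50% (SOX2) and 9 no island, with a median of 5.08%. Of 9 endoderm genes 5 had at least 5%, none at least 50% and 4 no island, with a median of 10.4%. Kept to genes assigned to a single layer, the medians were 43.3% for 9 mesoderm, 4.84% for 18 ectoderm and 0 for 2 endoderm genes. With lists of equal covered length, made by dropping the narrowest islands of each library, the mean over libraries of the median member was 6.02% in mesoderm in place of 23.3%, 0.257% in endoderm in place of 2.77% and close to 0 in ectoderm in place of 4.32%. Family and layer coincide in part, since all 7 T-box genes were placed in mesoderm. They gave 4 of the 6 mesoderm genes of at least 50% and 6 of the 13 of at least 5%. Of the other mesoderm genes, GATA5, FOXL2, NKX2-5, LHX1 and LHX9 had no island and FOXF1, IRX4 and WT1 had under 5%. HAND2, PAX7, GATA4, PAX5, PAX1, MSGN1 and PAX2 had at least 5%. The single-layer mesoderm genes with at least 5% were TBX5, TBX15, TBX20, TBXT and MSGN1. The mesoderm rank thus rested largely on the T-box genes. The median gene length was 13.4 kb in mesoderm, 5.19 kb in ectoderm and 7.31 kb in endoderm genes. By family it was 3.25 kb in basic helix-loop-helix genes, with a median coverage of 47.2%, and 32.9 kb in GATA genes, with a median coverage of 0. Other families went the other way. PAX genes had the highest median length and T-box genes were also long, with median coverages of 30.7% and 50.2%. FOX and DLX genes were short, with a median coverage of 0. The only GATA gene with islands, GATA4, was the longest of its family, and the basic helix-loop-helix value rested largely on the flanks. Of 9 members of 50 kb or longer, 8 had at least 5% coverage, with a median of 43.7%, against 23 of 47 shorter members, with a median of 4.99%. Among all genes the shares with a mean of 5 to 95% were 27.6% for long and 17.3% for shorter ones. The part of length in the differences between families and layers was not tested.

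Islands stopped short of the members' starts. Start sites were known for 22 of the 31 members with a mean coverage of 5 to 95%. In 352 pairs of a gene and a library the start site itself was inside an island in 20 (5.68%), and only 9 genes contributed (TBX5 in 5 libraries, SOX2 in 4, MSGN1 and TBX20 in 3 each, and NEUROD1, PAX7, POU4F1, SIX6 and TBXT in 1 each). At 5 kb upstream the share was 45.5% and at 5 kb downstream 38.4%, and at 20 kb it was 53.1% upstream and 56.2% downstream. The dip was shared with other genes: of 1270 tested genes with a CpG ratio of 0.6 or more at the start, 8.44% were inside an island at the start and 47.9% at 5 kb upstream. Among 1892 tested genes with a lower ratio the share at the start was 42.3%. In a window of 2.5 kb on each side of the start, the median member had a coverage of 15.9%, against 39.0% over the same genes' whole windows. The CpG-rich genes had 20.4% against 36.8%.

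Several PAX genes had a covered body and little or no coverage around the 1 start used per gene. Any other start inside these genes was not examined. In the window around the start PAX3, PAX6 and PAX9 had no base covered in any library, PAX2 had a mean of 0.120% and PAX5 0.960%, although PAX2, PAX3 and PAX5 had gene coverages of 69.1, 43.7 and 38.3%. NKX6-1 and LHX2 also had no base covered there. TBX20 had a mean of 67.8% around its start beside 53.8% over the gene, and MSGN1 had 49.9% beside 51.2% and NKX2-2 37.1% beside 16.4%. The start site itself lay inside an island in 3 libraries for TBX20, in 3 for MSGN1 and in 0 for NKX2-2. TBX20 has 31 CG dinucleotides in the 250 bases printed and MSGN1 has 2, so both kinds of start occurred among those with covered surroundings.

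**Figure D3:**
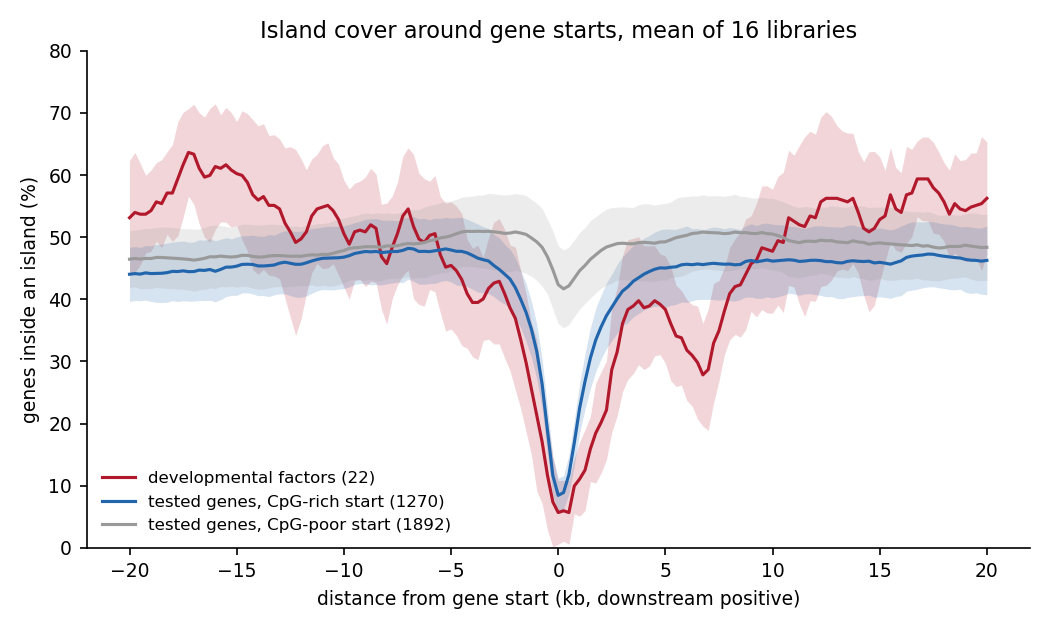
Share of genes inside an island (vertical axis, percent, mean of 16 libraries with the SD over libraries shaded) by distance from the gene start (horizontal axis, kb, downstream positive) for 22 members, 1270 tested genes with a CpG-rich start and 1892 tested genes with a CpG-poor start. At the start 5.68% of members, 8.44% of CpG-rich and 42.3% of CpG-poor genes lie inside an island.

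The number of the 56 members with any island was 29.5 ± 3.11 in combo, 26.25 ± 0.957 in EPZ, 31.25 ± 1.50 in P38i and 30 ± 1.83 in control (SD, n = 4 each). Over all protein-coding genes the shares with an island were 23.3% ± 0.843 in combo, 22.3% ± 0.596 in EPZ, 25.6% ± 0.851 in P38i and 24.0% ± 0.888 in control. The ranges of the member counts were 27 to 34, 25 to 27, 29 to 32 and 28 to 32 in the same order, so EPZ did not overlap with P38i or control. The share of all protein-coding genes with an island was likewise lower in every EPZ library than in every P38i or control library. The separation was thus not particular to the members. The number at least 50% covered was 9.75 ± 5.19 in combo, 5.25 ± 2.87 in EPZ, 10.25 ± 5.50 in P38i and 9.50 ± 4.04 in control, and these ranges overlapped. The covered length of the whole lists moved with them, at 565 ± 43.2 Mb in combo, 527 ± 56.4 Mb in EPZ, 620 ± 61.4 Mb in P38i and 589 ± 78.0 Mb in control. With lists cut to equal covered length the members with an island numbered 21.75 in combo, 23 in EPZ, 19.5 in P38i and 19.5 in control. The cut dropped the narrowest islands down to the shortest list, EPZ replicate 1 at 474 Mb. That list lost nothing and longer lists lost more, so the order of these counts follows in part from the cut and nothing is read from it.

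Differences per gene were tested with limma over 4105 genes with a mean coverage of 5 to 95%, which left 31 of the 56 members. Adjusted p-values are Benjamini-Hochberg values over all 4105 genes, with a threshold of 0.05, and differences are in percentage points of coverage. A gene whose group lies at 0 in all libraries has too small a shared spread, so its p may be too low.

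The EZH2 inhibitor alone was read from EPZ against control. Coverage of MSGN1 (chromosome 2, 17816460 to 17817798) fell, and no other member passed. MSGN1 was covered at 29.0, 19.6, 25.9 and 52.0% in EPZ libraries and at 87.4, 71.6, 100 and 87.4% in control libraries. Every EPZ library lay below every control library, and the means were 31.6% ± 14.2 and 86.6% ± 11.6. The difference was -55.0 points (SE 12.6, adjusted p = 0.0339 in limma). The widest island touching MSGN1 was 2.2, 5.4, 8.4 and 6.6 kb wide in EPZ libraries and 16.2, 15.2, 13.0 and 6.6 kb in control libraries. Around its start the coverage was 33.4% ± 6.30 in EPZ and 83.0% ± 14.7 in control, and there MSGN1 did not pass (adjusted p = 0.124). With 1 member lower and 0 higher of 31, the calls stood beside 3.05% of all tested genes lower and 0.122% higher.

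A further 3 members had EPZ libraries entirely below control libraries without passing, where 7.84% of all tested genes were separated in that direction. No member was separated upward, where 0.56% of all tested genes were. TBX20 was covered at 35.6, 38.5, 37.1 and 45.2% in EPZ libraries and at 67.8, 68.8, 69.2 and 52.2% in control libraries (difference -25.4 points, SE 7.51, adjusted p = 0.0749). SOX17 had no island in any EPZ library and coverages of 37.6, 42.6, 22.5 and 17.5% in control libraries (adjusted p = 0.112). NKX6-1 had none in any EPZ library and 26.9, 2.57, 12.3 and 24.4% in control libraries (adjusted p = 0.121). The differences of SOX17 and NKX6-1 were -30.1 and -16.6 points. Over the 31 members, 24 differences lay below 0 and the median was -5.17 points, against -4.42 points over all tested genes. At an unadjusted p under 0.05 there were 7 members lower and 0 higher, where 19.1% and 1.75% of all tested genes were.
The MSGN1 call rested on single libraries. It was lost without EPZ replicate 1, 2 or 3 (adjusted p = 0.0913, 0.109 and 0.0766) and without control replicate 1, 2 or 3 (adjusted p = 0.0712, 0.0794 and 0.0985). Its difference kept its sign in all 16 fits with 1 library left out, between -50.5 and -61.8 points. It was also lost with the covered length of each library as a covariate (-46.8 points, adjusted p = 0.0733) and with lists of equal covered length (-49.0 points, adjusted p = 0.0551). Without the 2 libraries with the narrowest islands no member passed (MSGN1 -53.8 points, adjusted p = 0.0702).

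**Figure D4:**
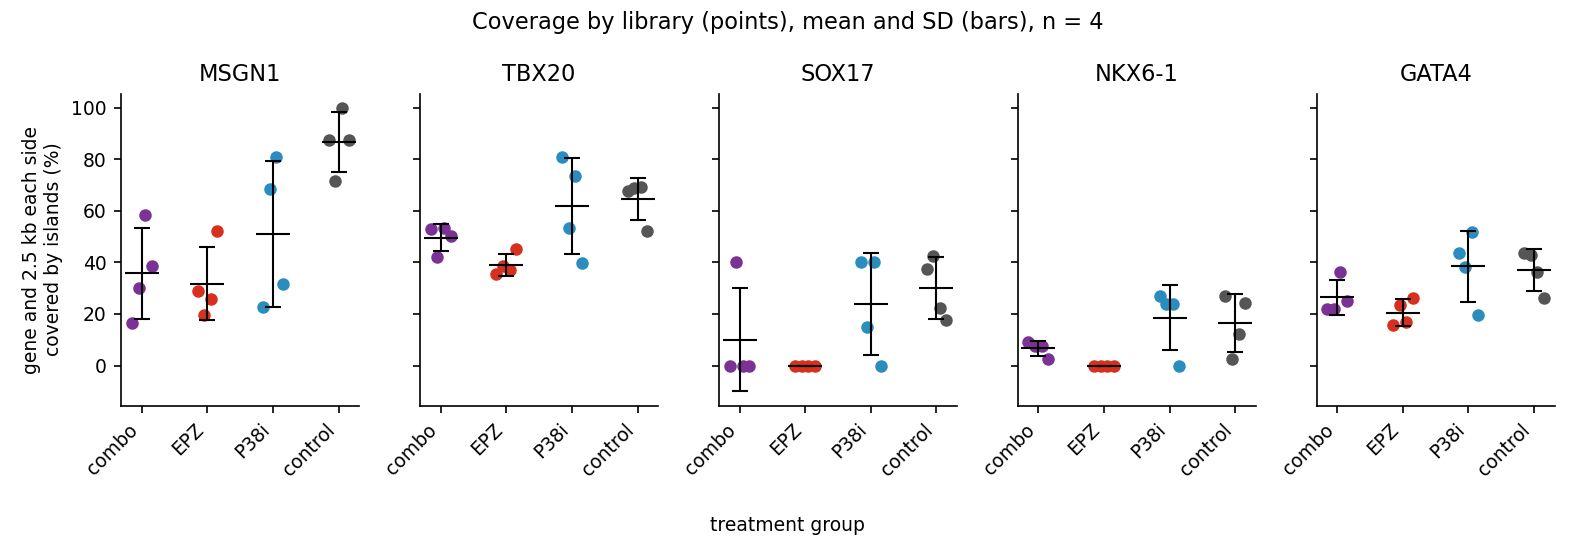
Coverage (vertical axis, percent) of the 5 members called lower with the EZH2 inhibitor, by treatment group (horizontal axis); points are libraries, the long bar is the mean of 4 and the whiskers are 1 SD. MSGN1 lies at 16.4 to 58.3% in combo, 19.6 to 52.0% in EPZ, 22.7 to 81.1% in P38i and 71.6 to 100% in control.

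The EZH2 inhibitor on top of the p38 inhibitor was read from combo against P38i. No member passed, where 1.85% of all tested genes were lower and 0.0731% higher. The unadjusted p was under 0.05 for 4 members lower and 2 higher (18.7% and 1.51% of all tested genes). LHX2 came closest, at 0, 0, 0 and 18.8% in combo libraries and 27.1, 38.4, 24.1 and 15.1% in P38i libraries (difference -21.5 points, SE 6.12, adjusted p = 0.0875). The groups overlapped in combo replicate 4 and P38i replicate 4. PAX5 was the member whose combo libraries all lay below the P38i libraries, at 37.1, 27.3, 43.4 and 43.2% against 48.2, 44.3, 57.1 and 45.4% (difference -11.0 points, adjusted p = 0.239), where 10% of all tested genes did so. TBX5 was separated the other way, at 68.1, 72.8, 70.8 and 79.8% in combo libraries and 48.3, 63.7, 66.1 and 44.9% in P38i libraries (difference 17.1 points, adjusted p = 0.306), where 0.828% of all tested genes were. MSGN1 was covered at 16.4, 29.9, 58.3 and 38.5% in combo libraries and 22.7, 68.4, 81.1 and 31.6% in P38i libraries. These overlapped, and the difference was -15.1 points (SE 12.6, adjusted p = 0.530).

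The EZH2 inhibitor comparisons with and without p38 inhibitor share no library. A difference below 0 in both was seen for 16 of 31 members (51.6%), against 62.6% of all tested genes, and above 0 in both for 5 members (16.1%), against 12.4%. The 5 were TBX5, PAX1, EN1, DLX5 and NKX2-2. FOXA2 was among the 8 members that lay below 0 without and above 0 with the p38 inhibitor, at -29.97 and 12.2 points (adjusted p = 0.229 and 0.657).

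**Figure D5:**
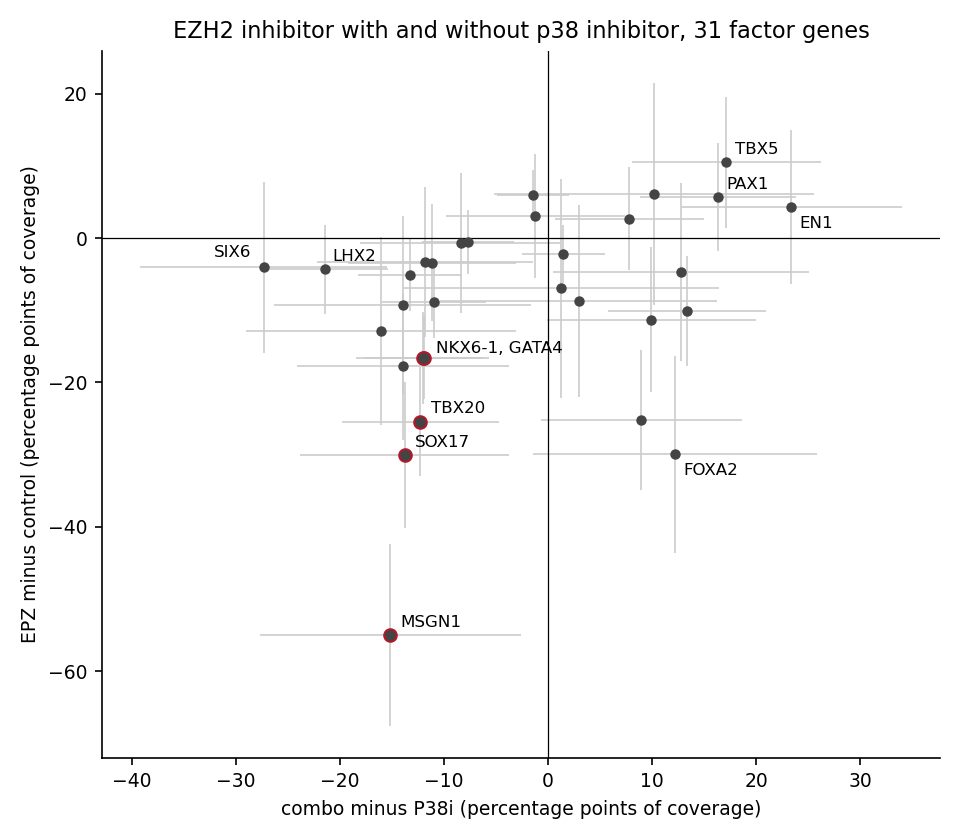
Difference in coverage for combo minus P38i (horizontal axis, percentage points) and EPZ minus control (vertical axis, percentage points) of the 31 tested members, with grey bars of 1 SE in each direction; red rings mark the 5 members called lower in the main effect. MSGN1 lies lowest, at -55.0 points without and -15.1 points with the p38 inhibitor.

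With the 8 libraries that had received the EZH2 inhibitor set against the 8 that had not, 5 members fell and none rose. They were MSGN1, TBX20 (chromosome 7, 35202430 to 35254100), NKX6-1 (chromosome 4, 84491985 to 84499292), GATA4 (chromosome 8, 11676935 to 11760002) and SOX17 (chromosome 8, 54457935 to 54460892). Of all tested genes 15.6% were lower and 0.877% higher, so the members' count lay near the share of all genes. MSGN1 had a lowest, median and highest coverage of 16.4, 29.5 and 58.3% with the inhibitor and 22.7, 76.3 and 100% without it (difference -35.1 points, SE 8.89, adjusted p = 0.0171). TBX20 had 35.6, 43.6 and 53.3% with it and 39.9, 68.3 and 80.8% without it (difference -18.8 points, SE 5.31, adjusted p = 0.0273). NKX6-1 had 0, 1.28 and 9.07% with it and 0, 23.7 and 26.9% without it (difference -14.3 points, SE 4.05, adjusted p = 0.0283). All 3 overlapped between the sides, and NKX6-1 had no island in 4 of the 8 libraries with the inhibitor and in 1 of the 8 without it. GATA4 had 15.7, 22.8 and 36.3% with it and 19.7, 40.6 and 52.0% without it (difference -14.3 points, SE 4.52, adjusted p = 0.0435). SOX17 had an island in 1 of the 8 libraries with the inhibitor, combo replicate 2 at 40.1%, and in 7 of the 8 without it, with a median there of 30.1% (difference -21.9 points, SE 7.11, adjusted p = 0.0486). No member's sides were free of overlap, where 1.56% of all tested genes were separated downward and 0.0244% upward. LHX2 lay just outside the threshold (-12.9 points, adjusted p = 0.0553), as did PAX5 (-9.89 points, adjusted p = 0.0695). At an unadjusted p under 0.05 there were 9 members lower and 1 higher, where 30.3% and 2% of all tested genes were. The median over the 31 members was -7.29 points, against -4.84 points over all tested genes.

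None of the 5 calls was kept when the covered length of each library entered the fit. MSGN1 then differed by -27.3 points (adjusted p = 0.0938), TBX20 by -11.6 points (adjusted p = 0.126), NKX6-1 by -12.2 points (adjusted p = 0.123), GATA4 by -7.16 points (adjusted p = 0.182) and SOX17 by -16.2 points (adjusted p = 0.223). With lists of equal covered length, which drop narrow islands, MSGN1 was called (-31.0 points, adjusted p = 0.0293). TBX20 (-8.38 points, adjusted p = 0.410) and GATA4 (-8.78 points, adjusted p = 0.218) were not. The number of members called also moved with single libraries. It was 1 without EPZ replicate 1 or 2, P38i replicate 1 or 3 or control replicate 1, and 2 without P38i replicate 2 or control replicate 2 or 3. It was 3 without combo replicate 1, 2 or 4 or EPZ replicate 3, and 8 without P38i replicate 4 or control replicate 4. MSGN1 was called in all 16 of these fits, with adjusted p from 0.0102 to 0.0386. In the window around the start no member passed, and TBX20 turned round there, with a difference of 11.5 points for the inhibitor and start coverages of 84.0% ± 11.3 in combo, 63.0% ± 43.6 in EPZ, 66.0% ± 10.1 in P38i and 58.0% ± 19.996 in control. The fall of TBX20 coverage was thus seen over the gene and not around its start.

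The p38 inhibitor alone was read from P38i against control. No member passed, where 0% of all tested genes were lower and 0.292% higher, and at an unadjusted p under 0.05 there were 7 members higher and 2 lower (9.38% and 0.755% of all tested genes). PAX9 was covered at 0, 0, 0 and 2.47% in P38i libraries and at 17.9, 28.4, 45.5 and 8.96% in control libraries. The groups did not overlap, where 0.171% of all tested genes were separated downward (and 3.24% upward, with no member among them), and the difference was -24.6 points (SE 7.58, adjusted p = 0.266). MSGN1 was lower too, but its P38i libraries spread over 22.7 to 81.1% and overlapped with control (-35.6 points, SE 12.6, adjusted p = 0.354). With lists of equal covered length, which drop narrow islands, MSGN1 passed (-63.6 points, SE 10.3, adjusted p = 0.0320). Its widest island was 6.2, 5.8, 11.6 and 2 kb wide in P38i libraries and mostly wider in control libraries. The cut can thus remove more of its coverage in P38i, and nothing is read from the larger difference. With the same lists EPZ against control gave -49.0 points (adjusted p = 0.0551). On the other side stood LHX2 (17.3 points, SE 6.12, adjusted p = 0.354), PAX2 (12.5 points, SE 4.43, adjusted p = 0.354) and PAX7 (22.2 points, SE 8.10, adjusted p = 0.385). PAX7 was covered at 36.1, 40.6, 54.6 and 20.3% in P38i libraries and 39.4, 5.53, 5.69 and 12.2% in control libraries, so control replicate 1 lay among the P38i values.

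The joint treatment was read from combo against control. No member passed, where 1.44% of all tested genes were lower and 0.244% higher. At an unadjusted p under 0.05 there were 1 member lower and 4 higher (13.5% and 4.99% of all tested genes). MSGN1 came closest, with all combo libraries below all control libraries (35.8% ± 17.6 against 86.6% ± 11.6, difference -50.8 points, SE 12.6, adjusted p = 0.0529), where 6.46% of all tested genes were separated downward. MSGN1 passed with covered length as a covariate (-47.6 points, adjusted p = 0.0311). It also passed with lists of equal covered length (-76.6 points, adjusted p = 0.00432), but that cut drops narrow islands. The widest island touching MSGN1 was 7.6, 2.4, 4.8 and 3.2 kb wide in combo libraries and 16.2, 15.2, 13.0 and 6.6 kb in control libraries. The cut can thus remove more of its coverage in combo than in control, and nothing is read from the larger difference. PAX1 was covered at 49.4, 50.5, 65.1 and 50.7% in combo libraries and at 11.1, 33.7, 38.2 and 35.9% in control libraries (difference 24.2 points, SE 7.48, adjusted p = 0.102). SOX21 had 20.8, 18.2, 46.0 and 20.8% in combo libraries and 13.2, 13.2, 15.7 and 0% in control libraries (difference 15.9 points, SE 10.4, adjusted p = 0.438). For these 2 genes all combo libraries lay above all control libraries, as for 1.61% of all tested genes. NKX2-2 (18.6 points, adjusted p = 0.183), EN1 (25.2 points, adjusted p = 0.223) and TBX5 (20.1 points, adjusted p = 0.258) were also higher at an unadjusted p under 0.05. PAX1, NKX2-2 and FOXA2 lie on the same stretch of chromosome 20, with 183 kb between PAX1 and NKX2-2 and 863 kb between PAX1 and FOXA2, and their windows do not overlap.

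The p38 inhibitor on top of the EZH2 inhibitor was read from combo against EPZ. No member passed, and 0% of all tested genes passed in either direction. At an unadjusted p under 0.05 there were 3 members higher and 0 lower (4.87% and 0.585% of all tested genes): FOXA2 (32.4 points, SE 13.6, adjusted p = 0.841), PAX1 (18.6 points, SE 7.48, adjusted p = 0.841) and NKX2-2 (15.9 points, SE 7.15, adjusted p = 0.883). All 3 are the chromosome 20 genes above. FOXA2 was covered at 34.8, 30.6, 74.8 and 38.9% in combo libraries and at 0, 6.22, 43.1 and 0% in EPZ libraries, which overlapped through EPZ replicate 3. PAX1, NKX6-1 and SOX21 had all combo libraries above all EPZ libraries, as had 2.80% of all tested genes. A difference above 0 was seen for 28 of 31 members, against 72.8% of all tested genes.

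With the 8 libraries that had received the p38 inhibitor set against the 8 that had not, no member passed, where 0.122% of all tested genes were higher and 0% lower. At an unadjusted p under 0.05 there were 7 members higher and 1 lower (12.7% and 0.536% of all tested genes). PAX7 differed by 18.4 points (SE 5.73) and SOX21 by 23.5 points (SE 7.33), each with an adjusted p of 0.209. PAX2 differed by 8.97 points (SE 3.13, adjusted p = 0.238) and PAX9 by -12.8 points (SE 5.36, adjusted p = 0.334). Of the 31 members 26 lay above 0, against 77.0% of all tested genes. No member passed the test of the interaction (the EZH2 inhibitor difference with p38 inhibitor less the difference without it), where 0.0487% of all tested genes were lower and 0% higher, with 4 members above and 0 below 0 at an unadjusted p under 0.05 (1.14% and 2.29% of all tested genes). MSGN1, with 39.8 points (SE 17.8, adjusted p = 1), was among them, so its smaller difference in the presence of the p38 inhibitor was not separated from its difference without it.

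Other developmental genes were also called with the EZH2 inhibitor, where 15.6% of all tested genes were lower and 0.877% higher. The lists were not compared by a test. Of 31 tested genes of the members' families, 5 fell (DLX4, FOXB1, FOXN4, NEUROD4 and SOX6) and none rose. Of 6 tested HOX genes HOXD1 fell, and of 7 tested head homeobox genes EMX1 and LMX1B fell and OTX2 rose. FOXN4, a factor of retinal and spinal interneurons, differed by -35.4 points (SE 5.82, adjusted p = 0.00250) and NEUROD4, a neuronal factor, by -32.9 points (SE 8.42, adjusted p = 0.0177). The 6 members with an island and a mean coverage under 5% were compared in 25 exact permutation tests over libraries, and none passed (each adjusted p = 1). These tests could not decide whether the genes differed. Even full separation of 4 libraries from 4 does not pass after adjustment over 25 tests unless many tests reach it together. Most of these genes also had islands in few libraries.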

How the data were processed

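The authors deposited 1 list of islands per H3K27me3 library, 16 in all, which hold only island positions on build hg38, with no score, count or other unit. Per the submitters' processing notes the tools were, among others, SICER, Bowtie2 2.3.4.1, SAMtools 1.2 and bedtools 2.28.0. For order and caller parameters the sources used here give nothing. Island bounds fell on 200 bp windows and the smallest gap was 800 bp, so enriched stretches closer than that stand as 1 island.

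Coverage was computed over RefSeq GRCh38.p14 gene spans with 2.5 kb on each side and checked against bedtools 2.31.1 for 500 genes. Genes with a mean of 5 to 95% were fitted in limma 3.58.1 (R 4.3.3, trend and robust) in 1 fit of 16 libraries without a replicate block. Benjamini-Hochberg adjustment ran within each of 8 contrasts over all tested genes. The script was tested on simulated data. The members, families, germ layers and comparison lists were chosen with earlier results of these data known. Members were given with values when past the threshold, among the 3 highest or lowest moderated statistics of a contrast, among the 10 highest means, nearest the 5% limit, or not overlapping between groups. Alternatives were other flanks, a start window, no filter, an arcsine transformation, islands under 1 kb dropped, lists of equal covered length, covered length as covariate, a fit of the 2 groups, a replicate block, a single germ layer, thresholds of 25 and 75%, and each replicate left out. Leaving out the 2 narrowest libraries was added after the data were seen.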

Additional observations from a re-analysis of the deposited data

Results flagged for a closer look

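A library was singled out when its gap to the nearest of the other 3 in its group, divided by the range of the group, exceeded the 95% critical value of Dixon's test for 4 samples. This was checked in 119 groups, each of a member's coverage or of a count or median over members in a treatment. Chance alone marks about 1 in 20 where values are normally spread, and 20 were marked, 19 of them for a member's coverage. Coverage is bounded at 0, and a library beside 3 tied ones is always marked, as for LHX2, SOX14, SOX17, PAX9 and NKX2-2 below. The count of 20 therefore cannot be set against that rate. The values below are coverages in percent, with the range of the other 3 libraries, and no explanation was tested.

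In combo, LHX2 had 18.8% in replicate 4 against 0% in the others, PAX1 had 65.1% in replicate 3 against 49.4 to 50.7%, and SOX21 had 46.0% in replicate 3 against 18.2 to 20.8%. SOX14 had 34.2% in combo replicate 4 and SOX17 had 40.1% in combo replicate 2, both against 0% in the others.

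EPZ replicate 3 was marked for 5 genes, always as the highest: FOXA2 had 43.1% against 0 to 6.22%, NEUROD1 53.5% against 40.7 to 41.8%, PAX2 72.2% against 60.5 to 62.3%, PAX3 45.3% against 31.7 to 33.8%, and TBX3 65.1% against 41.2 to 44.4%. NKX2-2 had 8.33% in EPZ replicate 1 against 11.9% in each of the others.

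In P38i, NKX6-1 had 0% in replicate 4 against 23.7 to 26.9%, PAX9 had 2.47% in replicate 4 against 0%, and SOX14 had 45.6% in replicate 3 against 0%. The number of members with an island was 29 in P38i replicate 4 and 32 in each of the others. In control, EN1 had 49.0% in replicate 1 against 14.6 to 17.9% and PAX1 had 11.1% in replicate 1 against 33.7 to 38.2%. Control replicate 4, which has narrow islands, was the lowest for 3 genes: NEUROD1 had 13.9% against 62.7 to 69.7%, SOX21 had 0% against 13.2 to 15.7%, and TBX20 had 52.2% against 67.8 to 69.2%.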

How the results depend on the processing

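Of 1320 values of named members under alternatives, 1224 kept their sign and their side of the threshold, 68 lost a call, 14 gained one and 14 turned round. Most of these values had no call to lose. The MSGN1 call in EPZ against control was kept in 16 of 28 alternatives. For the EZH2 inhibitor MSGN1 was called in 24 of 27, TBX20 in 16 of 27, NKX6-1 in 15 of 24, GATA4 in 10 of 26 and SOX17 in 7 of 25. With no flank, a flank of 1 kb, a start window, the covariate, equal lists or without the narrowest libraries, 0 members were lower in EPZ against control, and 2 with a flank of 5 kb. Combo against P38i gave 1 lower with no flank. Combo against control gave 1 with a flank of 5 kb, the covariate or equal lists, and P38i against control 1 with equal lists, which was MSGN1 each time. For the EZH2 inhibitor overall 3 were lower with no flank or no filter, 0 with the start window or the covariate and 1 with equal lists. Leaving out each replicate in turn gave 0 to 3 lower for EPZ against control, 0 to 2 for combo against P38i, 0 to 1 for combo against control, and 1 to 8 lower and 0 to 1 higher for the EZH2 inhibitor. At a threshold of 25% the members covered numbered 21 in combo, 15.5 in EPZ, 21.75 in P38i and 19 in control, and at 75% they numbered 1, 0.5, 2 and 1.5, while equal lists gave 3.75 at 50% in P38i. Members with any island numbered 23.75, 19.25, 25.5 and 22.75 in the same order with no flank and 21.75, 23, 19.5 and 19.5 with equal lists, and with a flank of 5 kb 30.5 in EPZ, 34.25 in P38i and 33 in control. The mean over libraries of the median member was 6.02% for mesoderm with equal lists and 33.2% with single-layer genes, and with equal lists 4.04% for NKX, 12.8% for PAX and 34.3% for T-box. With no flank it was 3.42% for NKX and 4.14% for basic helix-loop-helix genes. With the start window TBX20 turned round to 4.99 points in EPZ against control, 26.0 in combo against control and 11.5 for the EZH2 inhibitor, and PAX7 to -4.27 points in P38i against control. SIX6 turned round for the p38 inhibitor, with 3.75 points at a flank of 5 kb and -8.44 to 1.05 over left-out replicates (above 0 without combo replicate 2 or control replicate 2). PAX1 ranged from -0.561 to 8.45 points in EPZ against control (below 0 without control replicate 1). In combo against EPZ, PAX9 ranged from -6.16 to 3.55 points (above 0 without combo replicate 3 or EPZ replicate 3 or 4) and PAX3 from -3.33 to 3.20 points (above 0 without combo replicate 1 or 2 or EPZ replicate 3). The cause of these changes was not tested.

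No pairing by replicate number was seen. Correlations were taken between libraries of different groups after each gene's group mean was removed. Same-numbered libraries correlated between -0.151 and 0.178 (median -0.00300, 24 pairs), and differently numbered ones between -0.204 and 0.163 (median -0.0123, 72 pairs). With a replicate block MSGN1 stayed called in EPZ against control (adjusted p = 0.0420), and 5 members were lower for the EZH2 inhibitor, with PAX5 called and GATA4 not (adjusted p = 0.0543). Read depth is unknown, so small islands may have been missed in shallow libraries.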
